A study of Mus musculus with 26 samples.

Results

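The genes examined here encode the machinery that takes a cell from G1 into S phase: the D cyclins Ccnd1, Ccnd2 and Ccnd3, their kinases Cdk4 and Cdk6, the E cyclins Ccne1 and Ccne2 with their kinase Cdk2, and the transcription factors E2f1 and E2f2. They were chosen by name as 10 genes, and all 10 are listed in both RNA-seq tables of the study, among 21277 genes listed in either table and 17846 in both. RNA was sequenced from mouse B220+ bone marrow cells, of strain C57/Bl6 by the labels, grown for 7 days with IL7 and SCF, which the labels call cultured pro-B cells. The question was how expression depends on Brg1, the ATPase of the SWI/SNF chromatin remodelling complexes, encoded by Smarca4. In the deletion experiment the Brg1-deleted group was Brg1F/F x ER-Cre (2 libraries) and its control was Brg1+/+ x ER-Cre (2 libraries). Both carried ER-Cre, a recombinase switched on by tamoxifen, and both received 0.3 µM tamoxifen over the final 60 hours. In the knockdown experiment all cells were Rag1-/-, which cannot rearrange antigen receptor genes, and were spin-infected with retrovirus on days 3 and 4, carrying a Brg1 shRNA (3 libraries) or a control shRNA (3 libraries). Infected cells were enriched through human CD25 with magnetic beads 2 days after infection. The labels used here do not give the age or sex of the mice, nor whether each library stands for its own mouse, so p-values measure only the spread between these libraries.

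In G1, growth signals raise the D cyclins, which bind and activate Cdk4 or Cdk6. These kinases phosphorylate the retinoblastoma protein Rb1 and its relatives, which releases E2F factors to switch on genes of DNA replication, the E cyclins among them. Cyclin E with Cdk2 then completes Rb1 phosphorylation and starts replication, while CDK inhibitors hold both kinase classes back. In early B cells cyclin D2 and cyclin D3 are the D cyclins in use, and cyclin D3 with Cdk4 or Cdk6 is known to be needed for the expansion of pro-B and pre-B cells.

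Each table holds 1 mean per group and gene, in normalized reads, which are reads divided by a library size factor. These are the authors' means. A gene is called where the adjusted p given in the authors' deposited table is under 0.05. The deletion means could be split back into whole reads of single libraries, which held about 11570729 and 8796497 reads in the Brg1-deleted group and 10759472 and 10221315 in controls. Libraries are named by this depth, since the tables carry no replicate numbers. Knockdown libraries held about 8300000 to 11050000 reads with Brg1 shRNA and 5200000 to 10510000 with control shRNA, and could not be split. In the authors' deposited table Smarca4 fell to 6067 normalized reads in Brg1-deleted cells, against 17898 in controls (adjusted p = 0.0008), and to 6743 with Brg1 shRNA, against 13340 with control shRNA (adjusted p = 0.0472). All 15 pro-B markers were listed in both tables, with Ebf1 and Pax5 between 3223 and 7809 normalized reads in every group, but the markers did not move together. In the deletion 7 lay below and 8 above 0. Cd79b, a chain of the B cell receptor complex, rose to 20542 normalized reads in Brg1-deleted cells, against 8045 in controls (adjusted p = 0.0106, the authors' deposited table). Dntt, the polymerase that adds untemplated bases, stood at 337 normalized reads in Brg1-deleted cells and 1273 in controls, and was not called. Macrophage and neutrophil transcripts were also present, and those of macrophages differed more between libraries of 1 group than between groups. C1qb, a complement gene of macrophages, stood at 117 and 9.30 normalized reads in the deeper and shallower Brg1-deleted library and at 11.7 and 210 in the deeper and shallower control library.

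None of the 10 G1 genes was called in either experiment. The authors' deposited table calls 1.47% of 19404 genes in the deletion (0.742% lower and 0.732% higher) and 0.218% of 19719 in the knockdown (0.0406% lower and 0.177% higher), by the DESeq test that the submitters' processing notes name. Without adjustment, 3 of the 10 had a p under 0.05 in the deletion, all lower (Ccne2, E2f1 and Cdk6), where 9.52% of all genes do (5.29% lower and 4.23% higher). In the knockdown it was 0 of the 10, where 2.74% of all genes do (1.08% lower and 1.67% higher). These shares cover genes of every level, whereas all 10 in the deletion and 9 in the knockdown averaged at or above the median level. The share among genes of like level was not computed. Signs were uneven in the deletion, with 9 of 10 below 0, E2f2 being the exception, and a median of -0.58 on the log2 scale, beside a median of -0.0014 and 50.1% below 0 over all listed genes. In the knockdown 6 of 10 lay below 0, with a median of -0.07, beside -0.0028 and 50.3% below 0 over all listed genes. There were 6 genes below 0 in both experiments, 1 above 0 in both (E2f2), while Ccnd1, Ccnd3 and Cdk6 were on opposite sides. The difference between the experiments was not tested, because the knockdown table gives no values per library.

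**Figure D1:**
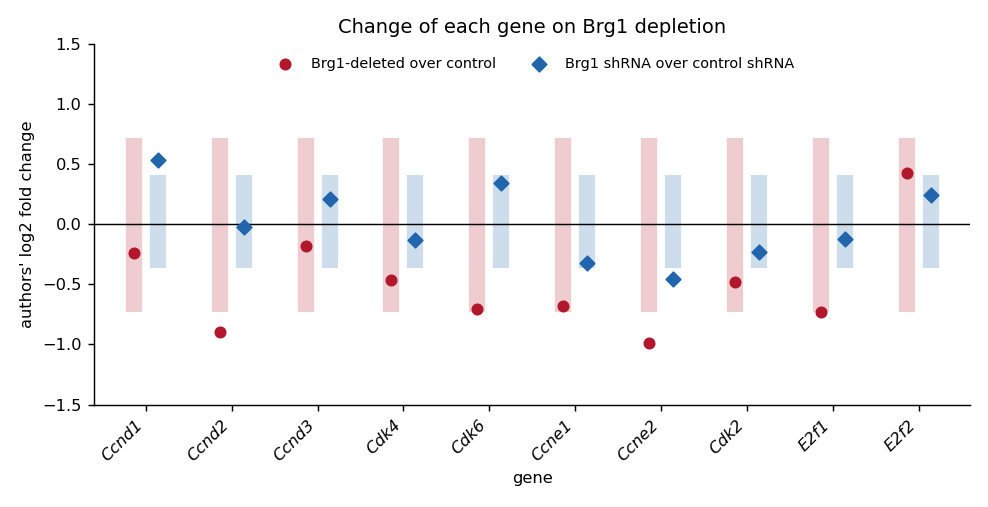
Authors' log2 fold change (vertical axis) of each of the 10 genes, Brg1-deleted over control (circles) and Brg1 shRNA over control shRNA (diamonds). Shaded bars span the 10th to 90th percentile of all genes at or above the median level in that table, -0.73 to 0.72 for deletion and -0.37 to 0.41 for knockdown. In the deletion Ccnd2 and Ccne2 lie below the bar, and in the knockdown Ccne2 lies below it. Ccnd1 lies above the knockdown bar but is not among the genes it covers. Its means there, 22.8 normalized reads with Brg1 shRNA and 15.7 with control shRNA, are under the median level of 49.0. Among all listed genes of the knockdown its log2 fold change was at percentile 82.4, within the 10th to 90th. The same holds for the genes below the bars. Among all listed genes Ccnd2 was at percentile 12.5 and Ccne2 at 10.8 in the deletion, and Ccne2 at 16.7 in the knockdown.

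Levels of different genes are compared as NPM per kb of exon, where NPM is normalized reads per 1000000 normalized reads of the group. On this scale Ccnd3, E2f2, Cdk4 and Ccnd2 were the most abundant in each of the 4 groups, between 60.1 and 176. Cdk2 followed in every group, between 37.8 and 58.9. Cdk6, E2f1, Ccne1 and Ccne2 lay between 8.92 and 25.4, and their order among themselves changed from group to group. Ccnd1 came last everywhere, between 0.462 and 2.23. The exon length counts all annotated exons of a gene, which for Ccnd3, with 21 transcripts and 8.78 kb, lowers the per-kb level relative to genes with few transcripts.

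**Figure D2:**
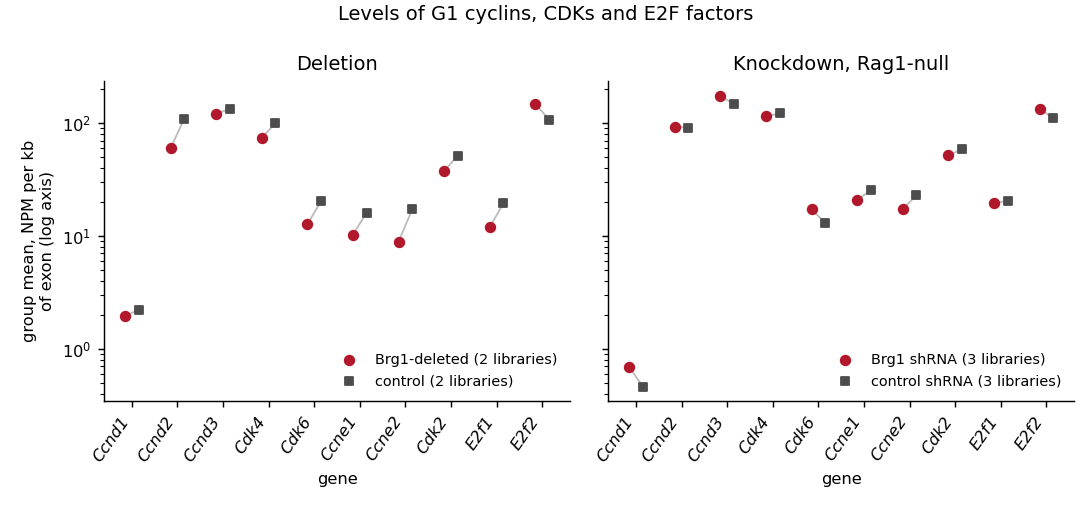
Group means of the 10 genes in NPM per kb of exon (log axis), for the deletion (left) and the knockdown (right). Circles are Brg1-depleted groups, squares their controls, and grey lines join the pair of each gene. Each point is the authors' mean of the libraries of a group, so no error bar can be drawn, and Ccnd1 stands more than an order of magnitude below Ccnd2 and Ccnd3 in each group.

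Cyclin D2 and cyclin D3, which couple IL7 and pre-B receptor signals to the cycle, made up nearly all D cyclin RNA. Ccnd2 (chromosome 6, 127125779 to 127151048, mm10) had an authors' mean of 3466 normalized reads in Brg1-deleted cells, against 6468 in controls. In the authors' deposited table this is a log2 fold change of -0.90 (unadjusted p = 0.1198, adjusted p = 0.954). Its split into libraries was not unique. The Brg1-deleted mean fits 5826 and 1105 or 2409 and 4522 normalized reads in the deeper and shallower library, and the control mean fits 8271 and 4664 or 1972 and 10964. The groups were apart in 1 of these 4 combinations and overlapped in 3. With Brg1 shRNA the Ccnd2 mean was 4562 normalized reads, against 4636 with control shRNA. That is a log2 fold change of -0.02 (adjusted p = 1, the authors' deposited table), and 0.022 when each group is scaled to its own total.

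Ccnd3 (chromosome 17, 47505051 to 47599691) was the most abundant D cyclin per kb in each group. Its authors' mean was 10764 normalized reads in Brg1-deleted cells, against 12195 in controls, a log2 fold change of -0.18 in the authors' deposited table. It was 13286 with Brg1 shRNA, against 11472 with control shRNA, a log2 fold change of 0.21 in the authors' deposited table of that experiment, and adjusted p = 1 held for both. Per kb, Ccnd3 stood at 2.02 times Ccnd2 in Brg1-deleted cells, against 1.22 times in controls, and at 1.89 times with Brg1 shRNA, against 1.61 times with control shRNA. No test of this ratio was possible, since neither gene could be split into libraries with certainty. For Ccnd3 the groups overlapped in all 35 combinations of the possible splits. A processed copy, Ccnd3-ps, held 1.59 and 1.48 normalized reads in Brg1-deleted and control cells.

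Ccnd1 (chromosome 7, 144929931 to 144939869), the D cyclin of many adherent and myeloid cells, was the least abundant D cyclin. It had 114 and 36 normalized reads in the deeper and shallower Brg1-deleted library, and 49.7 and 127 in the deeper and shallower control library, from 132, 31, 51 and 127 reads. The groups overlapped, and the spread within each group, 3.16-fold in Brg1-deleted cells and 2.56-fold in controls, exceeded the difference of the means, 75.0 against 88.4. The log2 fold change of -0.24 (adjusted p = 1, the authors' deposited table) turned to 0.37 without the shallower Brg1-deleted library and to 0.59 without the shallower control library. The summed macrophage markers (9 of 10 names listed, none of the 9 with a mean of 0) ranked the 4 libraries in the same order. The name not listed, Adgre1, is another name of the listed Emr1. The sums were 4956 and 1908 normalized reads in the deeper and shallower Brg1-deleted library and 2553 and 7314 in the deeper and shallower control library. The 6 listed stroma markers gave that order too, at 42.3 and 12.8 normalized reads in the deeper and shallower Brg1-deleted library and 17.6 and 56.0 in the deeper and shallower control library. The part of these cells in the Ccnd1 signal was not tested. In the Rag1-null cultures Ccnd1 had a mean of 22.8 normalized reads with Brg1 shRNA, against 15.7 with control shRNA, a log2 fold change of 0.53 (adjusted p = 1, the authors' deposited table). There the 9 listed macrophage markers summed to 45.6 NPM (not divided by length) with Brg1 shRNA and 37.0 NPM with control shRNA, beside 339 and 476 NPM in the Brg1-deleted and control cells of the other experiment. In such bulk RNA fewer cells of a type and less RNA per cell cannot be told apart.

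Of the kinases that pair with D cyclins, Cdk4 was the more abundant per kb, at 5.83 times Cdk6 in Brg1-deleted cells and 4.93 times in controls, and at 6.70 times with Brg1 shRNA and 9.32 times with control shRNA. Cdk4 (chromosome 10, 127063534 to 127067920) had a single solution of 1989 and 2891 normalized reads in the deeper and shallower Brg1-deleted library, while the control mean fits 3565 and 3179 or 1629 and 5115. The groups are apart with the first control solution and overlap with the second. Its means of 2440 normalized reads in Brg1-deleted cells and 3372 in controls give a log2 fold change of -0.47 (adjusted p = 0.9712, the authors' deposited table). With Brg1 shRNA the mean was 3220, against 3527 with control shRNA, a log2 fold change of -0.13 (adjusted p = 1, the authors' deposited table).

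Cdk6 (chromosome 5, 3343893 to 3523218) varied least within groups of the 6 genes that could be split. It had 485 and 478 normalized reads in the deeper and shallower Brg1-deleted library and 823 and 750 in the deeper and shallower control library. Both Brg1-deleted libraries lay below both controls. In the authors' deposited table the log2 fold change was -0.71, with an unadjusted p of 0.0435 that did not pass adjustment (0.6066). With Brg1 shRNA Cdk6 lay on the other side of 0, at a mean of 552 normalized reads, against 435 with control shRNA, a log2 fold change of 0.34 (unadjusted p = 0.2283, the authors' deposited table).

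The E cyclins, activators of Cdk2 at the start of S phase, had the lowest levels per kb after Ccnd1 in Brg1-deleted cells and in their controls. In both knockdown groups Cdk6 lay below them. Ccne2 (chromosome 4, 11191351 to 11204779) had 305 and 326 normalized reads in the deeper and shallower Brg1-deleted library and 547 and 705 in the deeper and shallower control library. The groups did not overlap. The authors' deposited table gives a 1.98-fold lower mean, with the lowest unadjusted p of the 10 genes, 0.0058, and an adjusted p of 0.1957. Ccne2 was also the lowest of the 10 by log2 fold change in the knockdown, at 520 normalized reads with Brg1 shRNA and 713 with control shRNA, a 1.37-fold lower mean whose unadjusted p was 0.4328 in the authors' deposited table.

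Ccne1 (chromosome 7, 38097984 to 38107534) had 295 and 259 normalized reads in the deeper and shallower Brg1-deleted library and 368 and 522 in the deeper and shallower control library, again without overlap. Its log2 fold change was -0.68 in the authors' deposited table, with unadjusted p = 0.0693 and adjusted p = 0.7561. Without the shallower control library it was -0.41. In the knockdown the means were 479 normalized reads with Brg1 shRNA and 600 with control shRNA, a log2 fold change of -0.32 (adjusted p = 1, the authors' deposited table). Ccne2 stood per kb at 0.867 times Ccne1 in Brg1-deleted cells, against 1.07 times in controls, and at 0.827 times with Brg1 shRNA, against 0.906 times with control shRNA.

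Cdk2 (chromosome 10, 128697939 to 128705051), the kinase of cyclin E and later of cyclin A, had 733 and 1129 normalized reads in the deeper and shallower Brg1-deleted library and 1492 and 1111 in the deeper and shallower control library. The shallower Brg1-deleted library lay just above the shallower control, so the groups overlapped. In the authors' deposited table the log2 fold change was -0.48 with an adjusted p of 1. It moved to -0.20 without the deeper Brg1-deleted library, -0.25 without the deeper control library and -0.83 without the shallower Brg1-deleted library. Means of 1086 normalized reads with Brg1 shRNA and 1273 with control shRNA give a log2 fold change of -0.23 (adjusted p = 1, the authors' deposited table).

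E2f1 and E2f2 both encode activating E2F factors, and lay on opposite sides of 0 in both experiments. E2f1 (chromosome 2, 154559407 to 154569892) had 302 and 466 normalized reads in the deeper and shallower Brg1-deleted library and 683 and 589 in the deeper and shallower control library. Its groups did not overlap, and the authors' deposited table gives a log2 fold change of -0.73, with unadjusted p = 0.0296 and adjusted p = 0.4988. It moved to -0.45 without the deeper Brg1-deleted library, beside -1.08 without the shallower Brg1-deleted library. With Brg1 shRNA its mean was 530 normalized reads, against 576 with control shRNA, a log2 fold change of -0.12 (adjusted p = 1, the authors' deposited table).

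E2f2 (chromosome 4, 136172394 to 136196057) was much the more abundant, per kb at 12.3 times E2f1 in Brg1-deleted cells, against 5.54 times in controls, and at 6.92 times with Brg1 shRNA, against 5.36 times with control shRNA. Its authors' mean was 7315 normalized reads in Brg1-deleted cells, against 5454 in controls, a log2 fold change of 0.42 (unadjusted p = 0.2291, the authors' deposited table). With Brg1 shRNA it was 5673, against 4782 with control shRNA, a log2 fold change of 0.25 (unadjusted p = 0.5459, the authors' deposited table). Each of its deletion means fits 3 splits into the deeper and shallower library, namely 8283 and 6348, 4865 and 9766 or 1447 and 13184 normalized reads for Brg1-deleted cells and 10404 and 503, 6039 and 4868 or 4104 and 6803 for controls. The groups overlap in 8 of the 9 combinations, so the direction in the deletion is not shown library by library.

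Genes of the E2F family and its partners are known to carry E2F sites of their own, so the promoter windows were searched. RefSeq windows on GRCm38.p6, from 250 bases before to 50 after an annotated start, were at hand for 7 of the 10 genes, in 9 windows. The window of E2f1 and the second windows of E2f2 and Ccnd3 lie inside their genes as the deposited table annotates them. The first window of E2f2 ends before the gene as annotated there, which begins at 136172394. The motifs TTTCCCGC, TTTGGCGC, TTTCGCGC and TTTGCCGC were searched on both strands. No 8 bases match more than 1 of them, though matches of different motifs can overlap in part. A match was found in 2 of the 9 windows and in 2.26% of 32851 windows of the same length over all genes. The windows with a match belong to E2f2 and Cdk2, and are shown because they hold the matches found. E2f2 was above 0 in both experiments and Cdk2 below 0 in both, but neither sign was shown library by library in the deletion. The part of the motif in these values was not tested. E2f2 is chr4:136172024-136172323 on the plus strand and Cdk2 is chr10:128705002-128705301 on the minus strand, both 5′ to 3′ in the direction of the gene, with the match in capitals.
E2f2: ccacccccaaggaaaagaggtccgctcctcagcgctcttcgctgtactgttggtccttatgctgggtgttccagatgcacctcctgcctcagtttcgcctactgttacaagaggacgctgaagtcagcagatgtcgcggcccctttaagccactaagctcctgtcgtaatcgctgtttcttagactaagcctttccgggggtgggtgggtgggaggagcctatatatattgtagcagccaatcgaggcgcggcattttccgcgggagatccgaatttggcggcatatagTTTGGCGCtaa
Cdk2: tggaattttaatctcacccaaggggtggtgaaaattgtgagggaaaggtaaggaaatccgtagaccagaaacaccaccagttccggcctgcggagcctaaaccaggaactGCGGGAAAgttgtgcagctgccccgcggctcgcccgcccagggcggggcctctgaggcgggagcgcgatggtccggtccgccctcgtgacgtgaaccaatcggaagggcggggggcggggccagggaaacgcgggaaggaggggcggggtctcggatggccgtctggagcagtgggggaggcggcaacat
In E2f2 the match TTTGGCGC begins at base 40, with the RefSeq start as base 1, and lies before the gene as the deposited table annotates it. In Cdk2 the match is TTTCCCGC on the opposite strand, read here as GCGGGAAA and beginning 140 bases before the start. A match is a description of letters, and neither gene was called.

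Over the 6 genes that could be split into libraries, 4 (Cdk6, Ccne1, Ccne2 and E2f1) had both Brg1-deleted libraries below both controls, and Ccnd1 and Cdk2 overlapped. Among 16820 genes split in this way with a mean of at least 1, 48.1% did not overlap in either direction, and 23.4% had both Brg1-deleted libraries below both controls. The limma test on these reads, run to give an interval, called 0 of the 6 and 0 of the 16820 genes (46 of all genes and 0 of the 6 without the shallower control library), with 4 of the 6 and 2819 of all genes at an unadjusted p under 0.05. With each library left out in turn, the limma log2 fold change ranged from -1.16 to -0.79 for Ccne2 and from -0.77 to -0.64 for Cdk6. It ranged from -1.07 to -0.44 for E2f1 and from -0.92 to -0.41 for Ccne1. By limma Ccne2 had a log2 fold change of -0.98 with a 95% interval of -1.5 to -0.46 (limma adjusted p = 0.14). For Cdk6 the limma interval ran from -1.13 to -0.28, for E2f1 from -1.42 to -0.09 and for Ccne1 from -1.28 to -0.05. The intervals of Cdk2, from -1.20 to 0.19, and of Ccnd1, from -2.08 to 1.47, held 0. With 1 library left out, 1 group held a single library, so the spread within it was not measured. The limma intervals of these fits are not adjusted for the number of genes and say little of stability. That of Ccne2, picked out by its lowest p, lay below 0 each time. That of E2f1 held 0 without the deeper Brg1-deleted (-1.12 to 0.23) or the deeper control library (-1.5 to 0.20), and that of Cdk6 without the deeper control library (-1.32 to 0.05). That of Ccne1 held 0 without the deeper Brg1-deleted, the shallower Brg1-deleted or the shallower control library, with upper bounds of 0.13, 0.33 and 0.34.

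**Figure D3:**
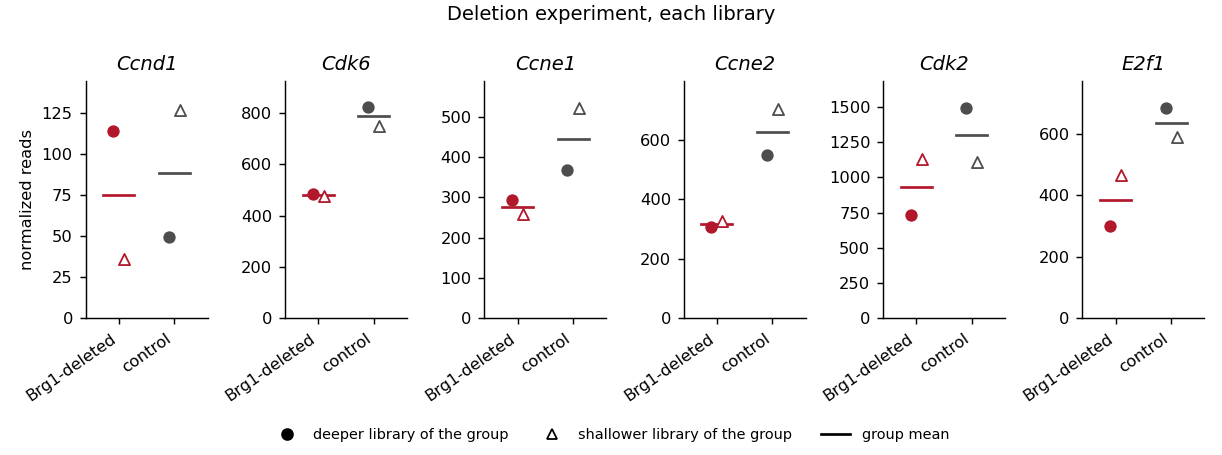
Normalized reads (vertical axes, each from 0) of the 6 genes whose deletion means split into single libraries in 1 way. Filled circles are the deeper and open triangles the shallower library of a group, and horizontal lines are group means. Cdk6, Ccne1, Ccne2 and E2f1 are lower in both Brg1-deleted libraries than in both controls, while Ccnd1 and Cdk2 overlap.

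Beside these values, the libraries differed in makeup across genotype. The deeper Brg1-deleted and the shallower control library had the higher macrophage marker sums given above, and the deeper Brg1-deleted library had 62.2 normalized reads over 8 neutrophil markers, beside 665 in the shallower Brg1-deleted library, 1458 in the deeper control library and 888 in the shallower control library. E2f1 shared this order over the 4 libraries. The 8 markers leave out Mpo, which could not be split and had 513 normalized reads in Brg1-deleted cells and 2177 in controls. The 10 T and innate lymphoid markers summed to 240 and 169 normalized reads in the deeper and shallower Brg1-deleted library and to 558 and 514 in the deeper and shallower control library, an order that Cdk6 shared. Their sum was 20.2 NPM in Brg1-deleted cells and 51.7 NPM in controls, with 7 of the 10 below 0 and 3 above it. In the authors' deposited table Thy1 (adjusted p = 1.07e-05) and Lck (adjusted p = 0.0236) fell. At 266 and 195 normalized reads in controls, Thy1 and Lck held most of the sum there. Klrb1c, Tcf7 and Gata3 went the other way and were not called, with Klrb1c at 22.9 normalized reads in Brg1-deleted cells and 3.93 in controls. The 5 of 15 pro-B markers that could be split summed to 1466 and 5010 normalized reads in the deeper and shallower Brg1-deleted library and to 5490 and 3553 in the deeper and shallower control library, an order over the 4 libraries that Cdk2 shared. All 15 pro-B markers together went the other way by genotype, with 9137 NPM in Brg1-deleted cells and 6053 NPM in controls. Brg1-deleted and control libraries were also set side by side, higher macrophage sum with higher and lower with lower. This comparison was chosen after the data were seen and had no test. The pairs were not matched in makeup. Macrophage sums were 4956 against 7314 and 1908 against 2553 normalized reads (Brg1-deleted against control). Sums of the 8 neutrophil markers were 62.2 against 888 and 665 against 1458. Each of the 6 genes was lower in the Brg1-deleted library of both pairs, as were 34.3% of the 16820 genes. The log2 differences in the libraries with higher and with lower macrophage sums were -1.21 and -0.75 for Ccne2, -0.97 and -0.55 for E2f1, -0.83 and -0.50 for Ccne1, -0.63 and -0.78 for Cdk6, -0.60 and -0.40 for Cdk2 and -0.16 and -0.46 for Ccnd1. Summed neutrophil markers (9 of 11 listed) were 86.7 NPM in Brg1-deleted cells and 323 NPM in controls. This sum includes Mpo, which held most of it in both groups. All 9 lay below 0, and 3 of them, Elane, Prtn3 and Ctsg, fell with an adjusted p of at most 0.015 (the authors' deposited table). Mpo, S100a8, S100a9, Ngp, Camp and Ltf were not called. The part of these marker levels in the G1 values was not tested.

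Around the 10 genes, the wider G1 pathway was read from lists chosen with earlier results of these data known, so their counts are descriptions. Beside every list count at an unadjusted p under 0.05 stands the share over all genes, 9.52% in the deletion (5.29% lower and 4.23% higher). In the knockdown that share was 2.74% (1.08% lower and 1.67% higher). Both shares cover genes of every level, and were not computed for genes of levels like those of the lists. Of the E2F target genes, mostly of DNA replication, 29 of 30 lay below 0 in the deletion, and the median was -0.76 on the log2 scale. Of these 1 was called, the uracil glycosylase gene Ung, which fell to 207 normalized reads in Brg1-deleted cells, against 549 in controls (adjusted p = 0.0123, the authors' deposited table). Another 15 had an unadjusted p under 0.05, all lower, which makes 53.3% of the list, where 5.29% of all genes are lower at that p. Uhrf1, which directs maintenance methylation at replication, had a log2 fold change of -1.03 (adjusted p = 0.0665, the authors' deposited table). In the knockdown 28 of 30 lay below 0, with a median of -0.22, 0 called and 1 at an unadjusted p under 0.05, Mybl2, a transcription factor of cycling cells, with a log2 fold change of -0.47 in the authors' deposited table.

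The other E2F factors (6 listed) had a median log2 fold change of -0.48 in the deletion and -0.15 in the knockdown, with 0 called in each, and 1 at an unadjusted p under 0.05 in the deletion and 0 in the knockdown. The activator E2f3 had that p, at 455 normalized reads in Brg1-deleted cells and 804 in controls (adjusted p = 0.3177, the authors' deposited table). Among the pocket proteins and DP partners (5 listed, medians of 0.35 in the deletion and 0.10 in the knockdown, 0 called in each), 1 had an unadjusted p under 0.05 in the deletion and 0 in the knockdown. That gene, Tfdp1, the common DNA-binding partner of E2F factors, stood at 1150 normalized reads in Brg1-deleted cells and 2492 in controls. Its log2 fold change of -1.12 had adjusted p = 0.285 by the authors' deposited table. Rb1, the brake on E2F activity, had 1386 normalized reads in Brg1-deleted cells and 1085 in controls (adjusted p = 1, the authors' deposited table), and was singled out after its value was seen.

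CDK inhibitors (7 listed) were divided, 4 above and 3 below 0 in each experiment, with medians of 0.05 in the deletion and 0.0015 in the knockdown. None was called, and 1 in each experiment was higher at an unadjusted p under 0.05, Cdkn1b in the deletion and Cdkn1a in the knockdown. Cdkn1b, which encodes p27 and binds cyclin E with Cdk2, had 2451 normalized reads in Brg1-deleted cells and 1318 in controls, and 972 with Brg1 shRNA and 754 with control shRNA. Its adjusted p was 0.3763 for deletion in the authors' deposited table and 1 for knockdown. Genes of CDK activation and cyclin turnover (17 listed) had medians of -0.42 in the deletion and -0.11 in the knockdown, with 0 called in each. In the deletion 4 were lower at an unadjusted p under 0.05, 23.5% of the list, where 5.29% of all genes are. In the knockdown 0 were, where 1.08% of all genes are. Cdc25a, the phosphatase that activates Cdk2, had a log2 fold change of -1.04 in the deletion (adjusted p = 0.1056, the authors' deposited table). Ccnh, the cyclin of the CDK-activating kinase, had -1.06 with an adjusted p of 0.1268 there.

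S and M phase cyclins and CDKs (6 of 7 listed) had medians of -0.47 in the deletion and -0.18 in the knockdown, with 0 called and 0 at an unadjusted p under 0.05 in either. Cyclins and CDKs of transcription and other roles (27 listed) lay near the middle of all genes, with medians of 0.14 in the deletion and 0.06 in the knockdown, 0 called, and 1 at an unadjusted p under 0.05 in the deletion, 0 in the knockdown. That gene, Ccng2, an unusual cyclin linked to cell cycle arrest, had 2687 normalized reads in Brg1-deleted cells and 1202 in controls (adjusted p = 0.057, the authors' deposited table). Among 16 genes upstream of the D cyclins, Bcl6, a repressor known to act on Ccnd2 in B cells, rose in the deletion and was the 1 gene called, at 501 normalized reads in Brg1-deleted cells and 101 in controls (adjusted p = 4.97e-06, the authors' deposited table). It stood at 163 with Brg1 shRNA and 54.1 with control shRNA (adjusted p = 1, the authors' deposited table). Myc, an activator of Ccnd2 and Cdk4 in other cells, had 517 normalized reads in Brg1-deleted cells and 1938 in controls, and did not pass (adjusted p = 0.146, the authors' deposited table). Kit, of the same list, was lower in both experiments and not called. It stood at 67.2 normalized reads with Brg1 shRNA and 154 with control shRNA (adjusted p = 0.086, the authors' deposited table). In the deletion it had 151 in Brg1-deleted cells and 478 in controls (adjusted p = 0.809, the authors' deposited table). The list median was 0.15 in the deletion, with 2 higher and 2 lower at an unadjusted p under 0.05. In the knockdown it was 0.11, with 0 called, and 2 higher and 1 lower at that p.

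**Figure D4:**
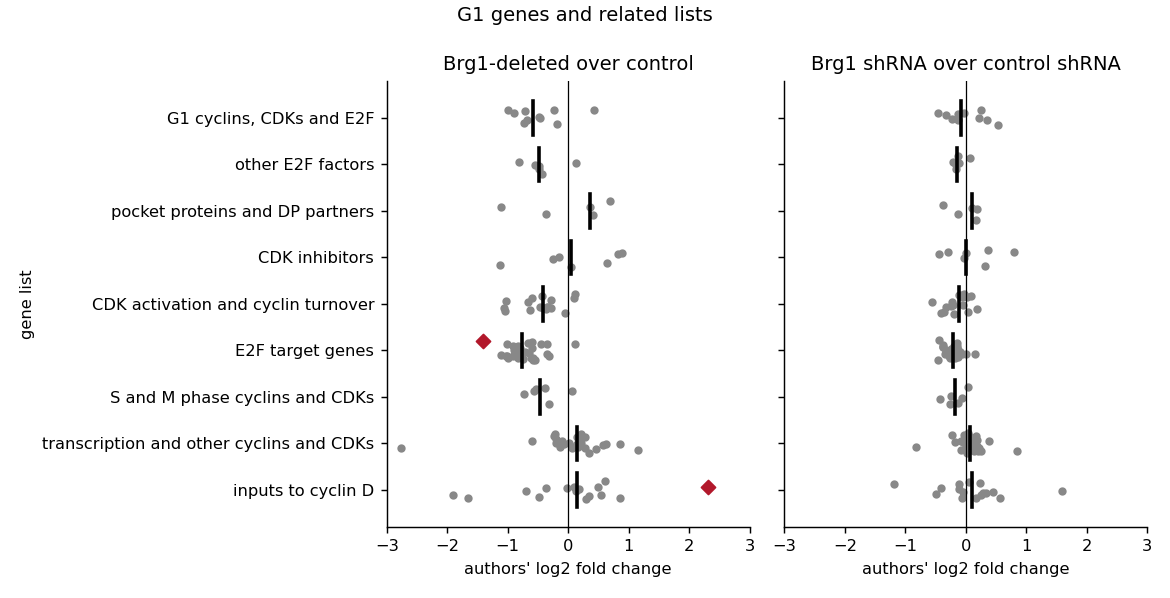
Authors' log2 fold change (horizontal axis) of the 10 G1 genes and of 8 related lists, for Brg1-deleted over control (left) and Brg1 shRNA over control shRNA (right). Dots are genes not called, red diamonds genes called at an adjusted p under 0.05, here Ung and Bcl6 in the deletion, and black bars list medians. The E2F target genes have a median of -0.76 in the deletion and -0.22 in the knockdown.

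Ccne2 had the lowest p of the 10 in the deletion, and the genes most like it were sought among 8881 genes at or above the median level, by Euclidean distance over 3 values, the log2 fold changes of deletion and knockdown and the log2 ratio of the control means. The nearest were Mphosph6 at 0.0381, Psat1 at 0.051 and Gtpbp10 at 0.061. Mphosph6 had log2 fold changes of -0.95 in the deletion and -0.46 in the knockdown, and Psat1, a serine synthesis enzyme, had -1.03 and -0.48 in the authors' deposited tables, none of them called.

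The tables were normalized separately, so levels across experiments are given in NPM and with no test. In the Rag1-null control shRNA group Ccnd1 stood at 0.208 times its level in the pro-B control group, and Cdk6 at 0.646 times. Ccne1 stood at 1.57 times and Ccne2 at 1.33 times the pro-B control level. The other 6 genes lay between 0.836 and 1.22 times. Over the 4 groups, the highest and lowest NPM were 4.81-fold apart for Ccnd1 and 2.58-fold and 2.47-fold apart for Ccne2 and Ccne1, against 1.37-fold for E2f2 and 1.45-fold for Ccnd3. Neighbouring groups in that order are not shown to differ for any of the 10 genes, since the only tests available are those within each experiment.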

How the data were processed

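RNA-seq values of 10 libraries in 4 groups were used, grouped by sample titles. The 16 chromatin and binding samples were not analysed here. Per the submitters' processing notes, CASAVA, RSEM and DESeq were used, with build mm10. Aligner settings, versions and strand use in counting are not given in the sources used here.

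Per the file headers and the values, the deposited mean columns hold a signal, the group mean of reads over size factors. Other columns come from the authors, per the file headers: the log2 fold change, the linear fold with a sign (a score), the p-value, and that p-value after Benjamini-Hochberg adjustment. Both the fold and log2 columns run Brg1-depleted over control. Exon lengths are the authors' as well. The authors mark 6 of the 10 genes in each table as confounded (47.1% of all genes for deletion and 47.3% for knockdown), which neither labels nor headers explain.

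The tables hold no values per sample, so the planned count test was replaced by the authors' calls at an adjusted p under 0.05. Each deletion mean was solved as a sum of whole reads from 2 libraries, with steps fitted by least squares and a tolerance of 6e-05. All 19404 genes had a solution in both groups, and 18398 (94.8%) had 1 alone. Only these were used per library. Counting error is covered by the spread between libraries. Then limma 3.58.1 in R 4.3.3 with a mean-variance trend was run without pairing on log2 of (reads + 0.5), scaled by size factor, for genes averaging at least 1 normalized read. Recovery and limma were tested on simulated data. Python 3.11.15 with numpy 2.4.6, pandas 2.3.3 and matplotlib 3.10.9 did the rest.

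The 10 genes, the lists and the tests were chosen with earlier results of these data known. Named genes were the 10, Smarca4, up to 4 genes per list by lowest p and any called, of which the text gives a part, and 3 nearest genes to the 1 with the lowest p. Alternatives were an adjusted p of 0.1, a 1.5-fold minimum, other adjustments, a mean of at least 10, a pseudocount of 1, other scalings and leaving out each library.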

Additional observations from a re-analysis of the deposited data

How the results depend on the processing

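No G1 gene was called with an adjusted p of 0.1 or an adjustment over listed genes. A 1.5-fold minimum can only remove calls, so its 0 says nothing of stability. The count was also 0 when p was adjusted anew over genes averaging at least 10, or over those not marked as confounded, which leaves 4 of the 10. For the deletion limma gave 0 of the 6 split genes with all libraries or without any 1, but called 0 of all genes in all but 1 of these settings, so its 0 says little. The median log2 fold change ranged from -0.58 to -0.55 in the deletion and from -0.07 to -0.03 in the knockdown. For single genes, 81 alternatives kept the sign and 3 did not. Most of these were a pseudocount of 1 or another scaling, which move a log2 value so little that only a value near 0 can turn. The leave-one-out values, which could turn others, cover only the 6 split genes in the deletion. Ccnd1 in the deletion ranged from -1.29 to 0.59 with 1 library left out: it turned to 0.37 without the shallower Brg1-deleted library and to 0.59 without the shallower control library. Cdk2 ranged from -0.83 to -0.20, E2f1 from -1.08 to -0.45 and Ccne1 from -0.92 to -0.41. Ccnd2 in the knockdown turned to 0.022 when scaled to group totals. The cause of these changes was not tested. Without the shallower control library limma called 46 genes, none of the 6. No paired analysis was possible because the tables give group means and the recovered libraries carry no replicate numbers. With 2 libraries a group, and 4 abundant genes (Ccnd2, Ccnd3, Cdk4 and E2f2) not split, the data cannot show that levels were equal.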
